A study of Mus musculus with 6 samples.

Results

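The plasma cell program was read here as 8 genes of the 33971 in the deposited table, chosen by symbol from what is known of antibody-secreting cells: Jchain, Mzb1, Xbp1, Prdm1, Irf4, Sdc1, Tnfrsf17 and Derl3. All 8 were present and all 8 passed the filter on low counts that left 20397 genes for testing. RNA came from articular cartilage of wild type (WT) mice aged 2 months (3 libraries) or 18 months (3 libraries), with no treatment or engineered allele named in either group. The comparison asked how cartilage transcripts differ between young and aged mice. How many animals each library holds is not given, so the p-values below measure the spread between libraries, which may be in part technical.

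Plasma cells are the end stage of the B lineage and live by secreting antibody, mostly from bone marrow, gut and lymphoid tissue rather than from cartilage, which has no vessels of its own. When a B cell is driven to secrete, IRF4 and PRDM1 (Blimp-1) turn the B cell program down, and XBP1 enlarges the endoplasmic reticulum (ER) to carry the load. MZB1 and DERL3 work in that ER, JCHAIN links IgM or IgA units into polymers, and TNFRSF17 (BCMA) and SDC1 (CD138) stand on the cell surface. Several of the 8 are not private to plasma cells, since XBP1, PRDM1 and IRF4 act in many cells and SDC1 is also made by epithelia.

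The 6 libraries held 48171507 to 51683577 counts at 2 months and 55201357 to 59085179 at 18 months. Chondrocyte markers, which define the labelled tissue, took 4.53% to 7.04% of counts in the young libraries and 0.0701% to 0.175% in the aged ones, and all 16 of 16 were called lower at 18 months (called meaning a Benjamini-Hochberg adjusted p below 0.05 in edgeR's quasi-likelihood test with a log2 fold change past 1). Neutrophil markers moved the other way, from 0.00175% to 0.563% at 2 months to 4.29% to 4.60% at 18 months, although 0 of 14 were called with edgeR (3 at an unadjusted p below 0.05) against 11 with DESeq2, 13 with limma and 13 with edgeR without 2-month replicate 2. The second young library (2-month replicate 2) stood apart from the other young libraries in blood and B lineage transcripts. It also differed in bone, endothelial, and synovial and tendon transcripts. Osteoblast and osteocyte markers took 2.17% of its counts, against 0.916% and 0.908% in the other young libraries. Each member's log2 fold change, and each count of called genes in a list that this library moves, is given with and without it. Mean FPKM, and list counts of genes without overlap between the ages, include it. In the fit without it, 5007 of 21489 genes tested were called higher and 4576 lower. Xist counts were 88239 to 102417 at 2 months and 11 to 30 at 18 months, while the study's methods speak of male mice, so age and whatever set this difference cannot be told apart. In tissue RNA of this kind, more cells of a type and more RNA per cell cannot be told apart either.

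The promoters of Jchain, Tnfrsf17 and Irf4 are shown. The first 2 are the members that differed between the ages by the test. Among the 7 members whose promoters were searched, Irf4 alone had a match to a motif. Each line gives the 250 bases before the RefSeq start site on build GRCm38.p6, 5′ to 3′ on the gene's strand, at chr5:88527898-88528147 (minus strand) for Jchain, chr16:11313559-11313808 (plus strand) for Tnfrsf17 and chr13:30748983-30749232 (plus strand) for Irf4.
Jchain: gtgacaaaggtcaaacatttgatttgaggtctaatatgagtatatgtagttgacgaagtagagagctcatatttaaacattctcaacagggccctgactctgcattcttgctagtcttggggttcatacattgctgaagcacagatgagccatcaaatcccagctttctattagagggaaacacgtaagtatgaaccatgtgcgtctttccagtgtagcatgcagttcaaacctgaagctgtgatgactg
Tnfrsf17: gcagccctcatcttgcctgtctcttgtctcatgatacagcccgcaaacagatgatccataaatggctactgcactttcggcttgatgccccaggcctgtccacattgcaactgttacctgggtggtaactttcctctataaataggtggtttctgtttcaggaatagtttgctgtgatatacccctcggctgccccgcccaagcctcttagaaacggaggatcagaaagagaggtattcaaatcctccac
Irf4: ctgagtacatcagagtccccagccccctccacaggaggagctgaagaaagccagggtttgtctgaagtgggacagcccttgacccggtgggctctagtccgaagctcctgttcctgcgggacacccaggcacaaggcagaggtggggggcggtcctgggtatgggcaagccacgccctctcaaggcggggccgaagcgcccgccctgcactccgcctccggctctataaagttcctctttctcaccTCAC
The 4 capitals mark the start of a match to GAAAGTGA, the core bound by PRDM1, which lies on the reverse strand (TCACTTTC) from base -4 and runs over the start site. That motif occurred in 1.47% of 32851 promoters searched on both strands over 300 bases. TGACGTGG, an element bound by XBP1 (0.676% of promoters), GGAANNGAA, a composite site for ETS factors and IRF4 (8.24%), and ATTTGCAT, the octamer of B cell promoters (1.74%), had no match in the windows of the 7 members searched. These are matches of letters in a window and not evidence of binding or of its absence.

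Different patterns with age stood out among the 8 genes. Jchain and Tnfrsf17 were higher at 18 months by the test. The regulators Irf4 and Prdm1 and the ER protein gene Mzb1 were below every aged library in 2 of the young libraries. Prdm1 stood there at 0.131 and 0.740 FPKM, against 1.61 to 2.03 in aged cartilage. In the second young library Irf4 and Prdm1 were above aged levels and Mzb1 part of the way to them. Xbp1, Sdc1 and Derl3 were detected in every library at both ages and did not pass the test. Of the 8, 2 were called higher, against 14.9% of all genes tested, and 0 were called lower (1 at an unadjusted p below 0.05 with edgeR, and 0 called with DESeq2 or limma), against 21.3%. In either direction the 2 calls stand against 36.3% of all genes. The highest young library lay below the lowest aged one for 3 members (Jchain, Mzb1 and Tnfrsf17), against 33.9% of all genes. For 0 members did every aged library lie below every young one, against 34.6%. Without 2-month replicate 2, Irf4 and Prdm1 also lay higher without overlap and Derl3 lower, with no share over all genes counted. Tnfrsf17, which is in both higher counts, had no counts in any young library and passed the filter through the aged libraries alone. Its direction and lack of overlap were therefore set by the filter. With 8 genes, these counts set nothing apart as particular to the program as a whole.

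**Figure D1:**
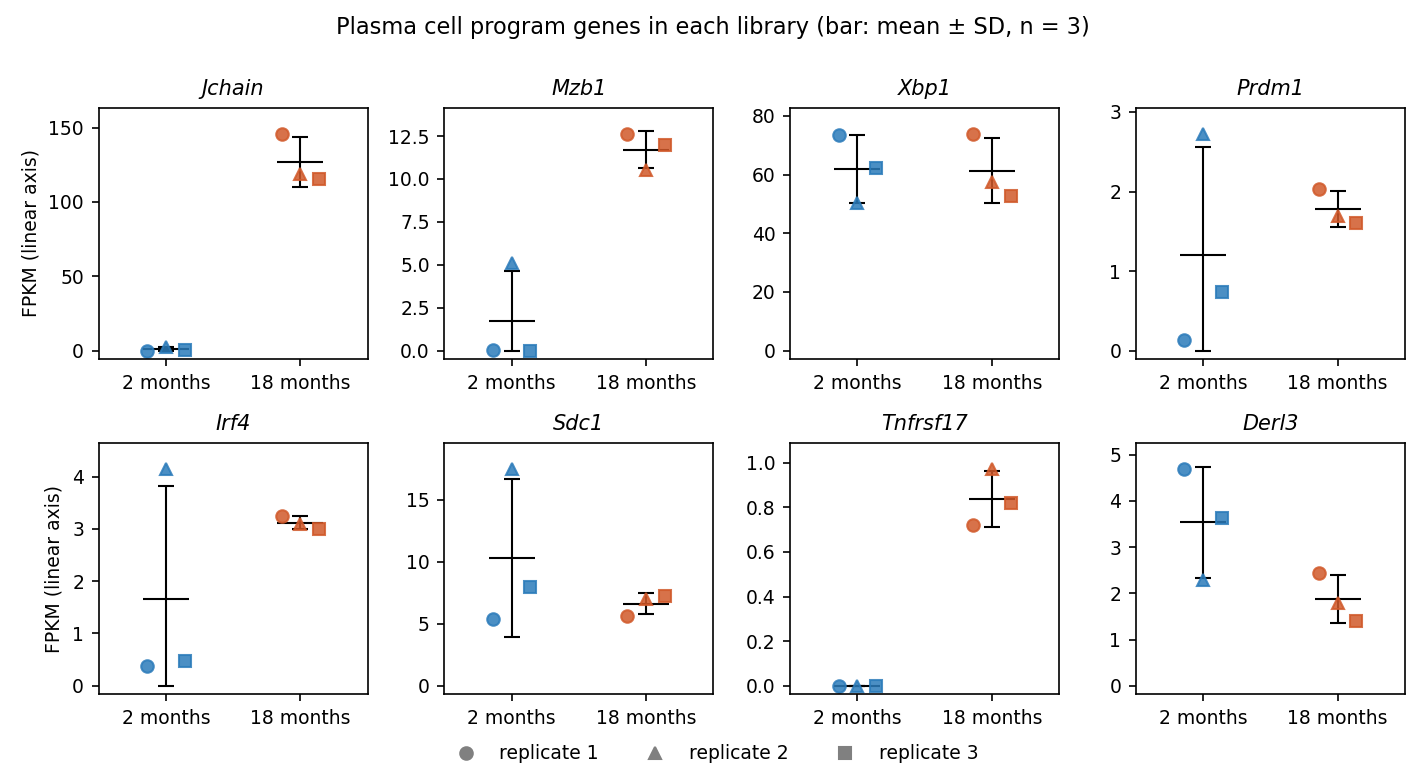
FPKM of each of the 8 plasma cell program genes (vertical axis, linear, scaled per gene) in the 3 libraries of each age, with the marker shape giving the replicate and the bar the mean ± SD (n = 3, the lower arm ending at 0 where the SD exceeds the mean). Jchain rises from under 3 FPKM to over 115, Tnfrsf17 is listed at 0 in every young library, and the young triangle (replicate 2) sits far above its neighbours for Mzb1, Prdm1, Irf4 and Sdc1.

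Jchain, the joining chain gene (ENSMUSG00000067149, chr5:88519809-88527891, minus strand), gave 14, 355 and 23 counts in the young libraries and 24687, 18765 and 18559 in the aged ones. Every aged library was far above every young one, and the second young library was itself above the other young ones. The deposited FPKM, a level per transcript length and depth, averaged 0.884 ± 1.32 in young cartilage and 127 ± 16.7 in aged cartilage (SD, n = 3 each). The log2 fold change was 7.14 (SE 1.43, edgeR quasi-likelihood test, Benjamini-Hochberg adjusted p = 0.00949). It was called under all 16 alternatives tried, with log2 fold changes of 6.29 to 9.79 and adjusted p of 1.5e-08 to 0.0299, and the highest value was that without 2-month replicate 2.

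Tnfrsf17, the receptor for the survival factors APRIL and BAFF (ENSMUSG00000022496, chr16:11313812-11320074, plus strand), had 0 counts in each young library and 40, 50 and 43 in the aged ones. It was the scarcest member, at 0.837 ± 0.127 FPKM (SD, n = 3) at 18 months, and it was listed at 0 in the second young library, where Mzb1, Irf4 and Prdm1 were plainly present. Set against a floor of 3 counts per library, its level was at least 12.3-fold higher at 18 months. The test was not of this bound but of the fitted log2 fold change of 8.35 (edgeR, Benjamini-Hochberg adjusted p = 0.00370). That fitted value rests on young libraries without counts, and Tnfrsf17 passed the filter through the aged libraries alone. Without 2-month replicate 2 Tnfrsf17 was again called, with a fitted log2 fold change of 8.37 (edgeR adjusted p = 0.00250). The call was lost with limma on log2(FPKM + 1), where the difference of 0.88 stayed under the fold limit, and under 1 more of the 16 alternatives.

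Mzb1, an ER partner of antibody assembly (ENSMUSG00000024353, chr18:35647267-35649367, minus strand), gave 5, 362 and 0 counts at 2 months and 1034, 804 and 929 at 18 months. The ages did not overlap, yet the young libraries ranged from none to 5.08 FPKM. Its mean was 1.71 ± 2.91 FPKM in young and 11.7 ± 1.09 FPKM in aged cartilage (SD, n = 3 each), and the log2 fold change of 2.77 (SE 1.80) did not pass the test (edgeR, Benjamini-Hochberg adjusted p = 0.240). Without 2-month replicate 2 it was called higher, at 8.15 (adjusted p = 0.000332 with edgeR, against a range of up to 0.356 over the 16 alternatives). Mzb1 lies wholly within a second annotated gene on its strand, SPATA24, which took at most 17 counts in any library, so how counts were split between them is uncertain.

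Irf4, the factor that commits B cells to plasma cell fate (ENSMUSG00000021356, chr13:30749226-30766976, plus strand), gave 103, 1191 and 129 counts at 2 months and 1071, 957 and 939 at 18 months. The second young library held more Irf4 than any aged library by FPKM (4.15 against 3.00 to 3.25), so the ages overlapped. The log2 fold change was 0.89 (SE 0.91, adjusted p = 0.441 with edgeR). Without that library it was called higher, at 2.77 (adjusted p = 0.000156), and it was not called under any other alternative (adjusted p up to 0.715, with none given by DESeq2).

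Prdm1, which silences the B cell program (ENSMUSG00000038151, chr10:44437177-44528501, minus strand), resembled Irf4 across the libraries. Its counts were 41, 891 and 233 at 2 months and 763, 595 and 572 at 18 months. The second young library was again the highest of all 6 by FPKM, at 2.73 against 1.61 to 2.03 in aged cartilage. The log2 fold change was 0.54 (SE 0.92, edgeR adjusted p = 0.646). Prdm1 was called under none of the 16 alternatives, the nearest being the comparison without 2-month replicate 2 (1.91, edgeR adjusted p = 0.0595, in a range of up to 0.983).

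Xbp1, the driver of the secretory ER (ENSMUSG00000020484, chr11:5520659-5525893, plus strand), was the most abundant member at 2 months. It gave 13106, 9578 and 11320 counts there and 16143, 11754 and 10901 at 18 months. Its level was 62.0 ± 11.5 FPKM (SD, n = 3) in young and 61.4 ± 11.1 FPKM in aged cartilage, and the libraries overlapped fully. The log2 fold change of -0.11 (SE 0.22) did not pass the test (edgeR adjusted p = 0.706). It came to -0.24 without 2-month replicate 2, and its sign turned without 2-month replicate 1 (0.06). Gene counts do not show the splicing that makes the active XBP1 protein.

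Sdc1, the heparan sulfate proteoglycan CD138 (ENSMUSG00000020592, chr12:8771323-8793715, plus strand), gave 1131, 3897 and 1696 counts at 2 months and 1441, 1672 and 1761 at 18 months. The second young library was the highest of the 6 and the other 5 lay between 5.40 and 7.92 FPKM. The log2 fold change was -0.68 (SE 0.41, edgeR adjusted p = 0.206), and it came to -0.11 without that library.

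Derl3, which helps pull misfolded proteins out of the ER (ENSMUSG00000009092, chr10:75893413-75895941, plus strand), gave 517, 271 and 410 counts at 2 months and 331, 229 and 181 at 18 months. Its FPKM was 3.54 ± 1.20 in young and 1.88 ± 0.524 in aged cartilage (SD, n = 3 each), and the fitted level in young cartilage was 2.01-fold that in aged cartilage (SE 0.37 on the log2 scale). The difference did not pass the test (edgeR adjusted p = 0.0646), and the lowest young library lay below the highest aged one. With DESeq2 the adjusted p was 0.0232, but the log2 fold change of -0.92 stayed within the fold limit. Without 2-month replicate 2, Derl3 was called lower at -1.24 (edgeR adjusted p = 0.0104, in a range of up to 0.179).

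**Figure D2:**
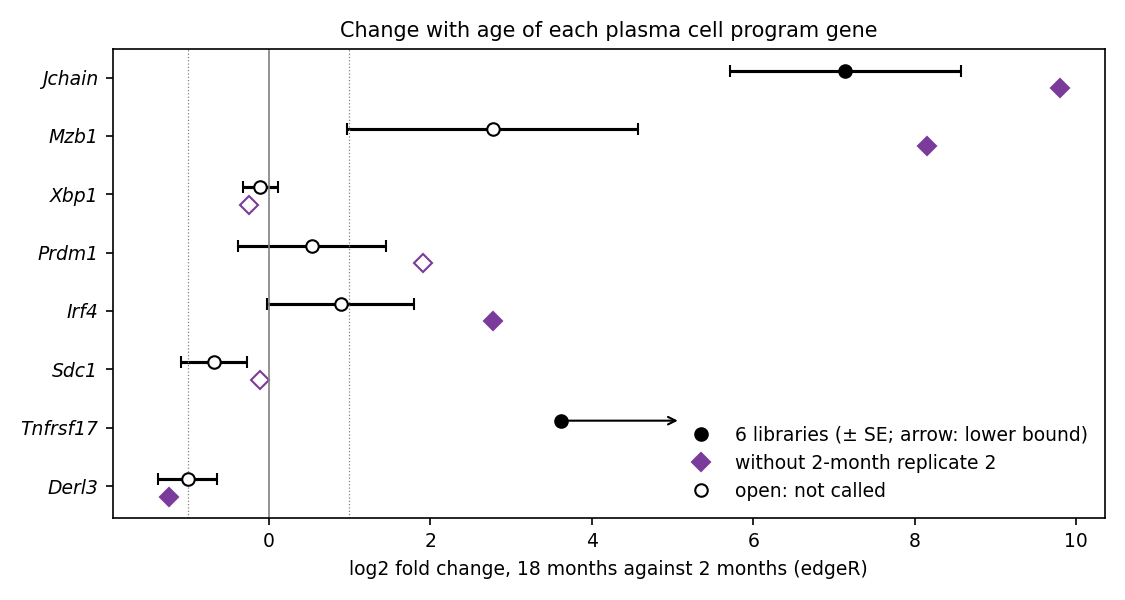
Log2 fold change at 18 against 2 months (horizontal axis, edgeR) of the 8 genes, with all 6 libraries (circles, ± SE) and without 2-month replicate 2 (diamonds). Filled marks were called, the dotted lines stand at -1 and 1, and the arrow for Tnfrsf17 starts at its lower bound of 12.3-fold, with no diamond drawn. Leaving the library out moves Mzb1 from 2.77 to 8.15 and Irf4 from 0.89 to 2.77, and leaves Jchain called.

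By FPKM the order of the members differed between the ages. At 2 months Xbp1 led (50.4 to 73.4 FPKM), clear of Sdc1 (5.40 to 17.5), which was clear of Derl3 (2.30 to 4.70), while each neighbouring pair from Derl3 through Mzb1, Irf4, Prdm1 and Jchain overlapped. At 18 months Jchain led (116 to 146 FPKM), clear of Xbp1 (52.6 to 73.9), Mzb1 (10.5 to 12.6), Sdc1 (5.62 to 7.25) and Irf4 (3.00 to 3.25), and only Derl3 and Prdm1 overlapped as neighbours. Jchain thus ranked 7 of 8 in young and 1 of 8 in aged cartilage. Together the 8 genes took 0.0287% to 0.0320% of counts at 2 months and 0.0608% to 0.0770% at 18 months.

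The second young library differed from aged cartilage in the proportions of the members. Irf4 stood there at 132% of the aged mean in counts scaled to library size, and Prdm1 at 152%. Sdc1 stood at 261%, Derl3 at 121% and Xbp1 at 81.5%. Ptprc, carried by white blood cells, reached 22.4%. Mzb1 reached 43.0% and Ighm, the IgM heavy chain, 27.8%. Igkc, the kappa light chain, reached 3.35%, Jchain 1.89% and Tnfrsf17 0%. So a library with as much Irf4 and Prdm1 as aged cartilage held little of its Igkc or Jchain. This is 1 library, picked for how it looked, and the contrast has no replicate.

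Jchain was then set against the heavy chains it joins, Ighm and Igha (IgA), a reference chosen after the data were seen. Of the summed Jchain, Ighm and Igha counts, Jchain made up 2.42% (95% Wilson interval 1.45% to 4.02%), 2.62% (2.37% to 2.91%) and 2.70% (1.80% to 4.01%) in the young libraries. In the aged libraries it made up 18.9% (18.7% to 19.1%), 16.9% (16.7% to 17.2%) and 16.8% (16.6% to 17.0%). The intervals of the young libraries overlapped although their Jchain counts ranged from 14 to 355, and all aged libraries lay far above them. The mean log2 ratio of Jchain to Ighm and Igha was higher by 2.98 at 18 months (two-sided exact permutation test p = 0.1, the smallest that 3 against 3 libraries allows; 0.133 adjusted by Benjamini-Hochberg over the 8 members). Against Igkc and Ighm it was higher by 2.67, with 24.2 to 28.1 Jchain counts per 1000 at 2 months and 147 to 178 at 18 months (exact p = 0.1, 0.133 adjusted). The intervals cover counting error only.

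**Figure D3:**
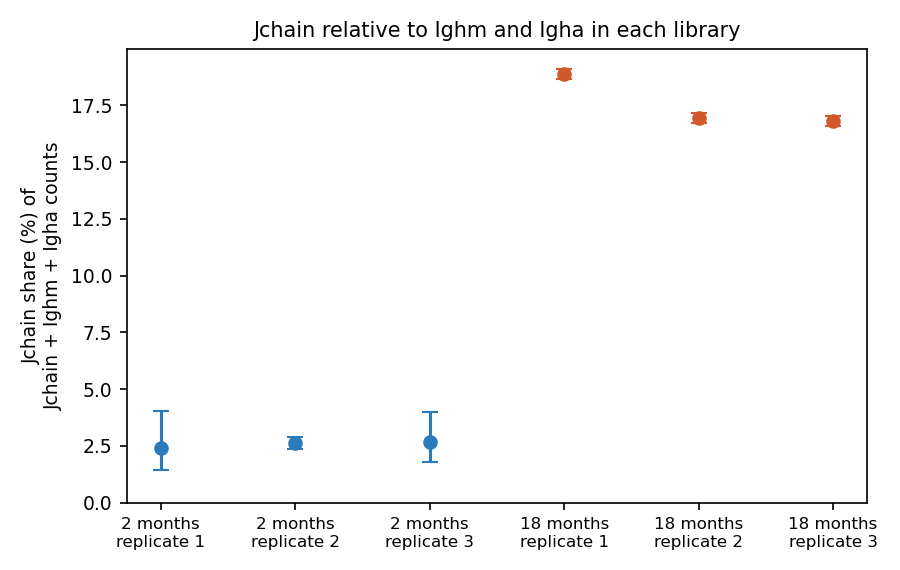
Jchain as a share (%) of the summed Jchain, Ighm and Igha counts in each of the 6 libraries (points, with 95% Wilson intervals from counting error alone). The young libraries lie at 2.42% to 2.70% and the aged ones at 16.8% to 18.9%.

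Against Ptprc (CD45), which all white blood cells carry, the members divided. Ptprc itself gave 38, 5842 and 392 counts at 2 months and 35268, 25585 and 25029 at 18 months. A gene of unchanged level would therefore have a lower ratio in every aged library. Jchain came to 368, 60.8 and 58.7 counts per 1000 Ptprc counts in young cartilage and to 700, 733 and 742 in aged cartilage, a difference of 2.71 in the mean log2 ratio (exact permutation p = 0.1, 0.133 adjusted over the 8 members). The ratio of Irf4 ran the opposite way, from 2711, 204 and 329 per 1000 to 30.4, 37.4 and 37.5. On the log2 scale it differed by -4.02 (exact permutation p = 0.1, 0.133 adjusted), while Irf4 itself differed by 0.89. Prdm1 (-4.35), Xbp1 (-5.81), Sdc1 (-6.26) and Derl3 (-6.68) also had lower ratios in every aged library. For a gene of steady level the Ptprc counts alone set this direction, and the log2 fold change of Xbp1 itself was -0.11. These lower ratios are therefore not read as falls of the members. Without 2-month replicate 2 the difference was 2.27 for Jchain, -4.75 for Irf4 and -5.15 for Prdm1. It was -7.78 for Xbp1, -7.62 for Sdc1 and -8.79 for Derl3. Mzb1 overlapped between the ages in this ratio, and its sign turned without 2-month replicate 3. Tnfrsf17 stood at 0 per 1000 in each young library and at 1.13, 1.95 and 1.72 in the aged ones, but in the young libraries its log2 ratio holds only the added 0.5 over the Ptprc count, so that ratio is not read. Since cells without Ptprc can make several of these genes, the ratios do not give a level per plasma cell.

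The genes whose profile over the 6 libraries was most like each member are given as a description, with no test, from 13893 candidates of at least 1 FPKM. With 3 libraries at each age, any gene with the same step between the ages scores high. Among the genes closest to Irf4 were Arl5c (Pearson r = 0.9989 on log2 scaled counts) and the B cell gene Blk (0.9987), and Prdm1 ran closest to Fblim1 (0.9981), Ptprv (0.9964) and the B cell gene Cd72 (0.9958). Jchain ran closest to Dnm2, Kcna3 and Tap2 (0.9999 each), and Tnfrsf17 to Vmp1 (0.999), the heavy chain variable gene Ighv4-1 (0.9988) and Krr1 (0.9986). Mzb1 was most like Trim10 (0.9997), Oas3 (0.9996) and Slfn8 (0.9988). Xbp1 was most like Bud13 (0.9957), Aven (0.9871) and Ap4s1 (0.9789), Sdc1 like Uchl1 (0.9884), Pdgfa (0.9882) and Hs2st1 (0.9831), and Derl3 like Scrn3 (0.997), Tm2d3 (0.9968) and Zranb2 (0.9946).

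Of 18 other genes tied to plasma cells, 3 were called higher and 4 lower, shares close to the 14.9% and 21.3% over all genes, with a median log2 fold change of 0.74 against -0.02 over all genes. The largest rise was in Fcrl5, an Fc receptor-like protein of B lineage cells (0, 10 and 0 counts at 2 months, 164, 70 and 54 at 18 months, log2 fold change 4.58, edgeR adjusted p = 0.0337). Tent5c, which stabilises immunoglobulin mRNA (2.07, adjusted p = 0.00659), and Sec11c, a signal peptidase subunit (1.56, adjusted p = 0.00211), also rose. The 4 that fell were the factor Zbtb20 (-3.97, adjusted p = 0.000749), the elongation factor Ell2 (-1.37), the cargo receptor Lman1 (-1.34) and the ER protein Txndc5 (-1.01). Cxcr4, the chemokine receptor that holds plasma cells in marrow and is also abundant on neutrophils, was the most abundant at 113 FPKM in aged cartilage, and its difference of 3.65 did not pass the test (adjusted p = 0.107). Without 2-month replicate 2, 9 of the 18 were called higher, against 5007 of the 21489 genes tested in that fit. With any other library left out, 2 were called higher.

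Immunoglobulin constant region genes encode the product of the program. Of 11 tested (a further gene was too low to test), 6 were called higher at 18 months, against 14.9% of all genes. All 11 were higher without overlap between the ages, against 33.9% of all genes. Ighg2c and Ighg3 had no counts at 2 months and passed the filter through the aged libraries alone. For these genes the direction and the lack of overlap were set by the filter. The median log2 fold change was 5.59, and it is the same with genes absent at 2 months set at their lower bound. Ighg2c had 0 counts in every young library and 37511, 7201 and 7654 in the aged ones, at least 4637-fold higher (2115-fold without 18-month replicate 1). Ighg3 had 0 in every young library and 2375, 113 and 116 in the aged ones, at least 226-fold higher (32.6-fold without 18-month replicate 1). Igkc was the most abundant (log2 fold change 6.44, edgeR adjusted p = 0.0421). The first aged library led both IgG genes by a wide margin but not Tnfrsf17, where it had the fewest counts of the aged libraries. Left out in turn, 2-month replicate 1 or 3 brought the 6 calls to 3, and 2-month replicate 2 brought them to 11. In the fit without 2-month replicate 2, 5007 of the 21489 genes tested were called higher.

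Genes that define the B cell before it secretes were called higher in 2 of 17 (Ciita, the regulator of MHC class II, 2.75, adjusted p = 0.0350, and Cr2, complement receptor 2, 2.19, adjusted p = 0.0151) and lower in 1 (Bcl6, the germinal centre repressor, -1.50, adjusted p = 0.0152), all with edgeR, against 14.9% and 21.3% of all genes. Id3, an inhibitor of basic helix-loop-helix factors, was the most abundant and stayed within the fold limit (-0.78). The median log2 fold change was 0.79. Without 2-month replicate 2, 13 of the 17 were called higher, against 5007 of the 21489 genes tested in that fit. The 2 calls came to 0 without 2-month replicate 3 and to 1 without any one aged library, and Bcl6 was not called without 18-month replicate 2 or 3.

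Of 42 ER secretion and unfolded protein response genes tested, only some of which Xbp1 governs in secreting cells, 11 were called lower and 1 higher. Over all genes the shares were 21.3% and 14.9%. The median log2 fold change of the 42 was -0.61. P4hb, the disulfide isomerase that also serves collagen folding, was the most abundant and fell most (653 FPKM at 2 months, 164 at 18 months, log2 fold change -2.09, edgeR adjusted p = 0.00443), followed by the chaperone Dnajb9 (-2.06, adjusted p = 0.00230). The 11 came to 16 without 2-month replicate 2 and to 7 without 2-month replicate 3 or 18-month replicate 2 or 3. Sdf2l1, part of an ER chaperone complex, was the 1 called higher (1.13, edgeR adjusted p = 0.0171), and it was not called without 2-month replicate 3 or 18-month replicate 1. These genes took 1.06% to 1.55% of counts in young and 0.646% to 0.884% in aged libraries, while chondrocyte markers moved the same way, and their part in the difference was not tested.

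Against 14.9% of all genes, 3 of 5 genes for signals that sustain plasma cells were called higher. They were Il6 (4.55, adjusted p = 0.0312), Tnfsf13b (BAFF, 3.74, adjusted p = 0.00317) and Tnfsf13 (APRIL, 3.35, adjusted p = 0.00339), by edgeR, the latter pair being ligands of the receptor that Tnfrsf17 encodes. Il6 rested on few counts (0, 7 and 0 against 39, 110 and 46). It passed the filter through the aged libraries alone, which set its direction and lack of overlap. Cxcl12, the ligand of Cxcr4, was the most abundant at 144 FPKM in aged cartilage and did not pass the test (3.38, adjusted p = 0.0888). All 5 were higher without overlap between the ages, against 33.9% of all genes. All 5 were called without 2-month replicate 2, against 5007 of the 21489 genes tested called higher in that fit. With any other library left out, 2 were called.

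Among family relatives of the members, Sdc4 (-3.44, adjusted p = 0.00239, the most abundant), Sdc3 (-3.17, adjusted p = 0.000959) and Sdc2 (adjusted p = 0.00112) were called lower by edgeR, while Sdc1 was not. Derl1 (-0.23) and Derl2 (-0.10) did not pass the test, nor did Tnfrsf13b (TACI, 3.26, adjusted p = 0.107), which shares its ligands with Tnfrsf17. Of the 8 relatives tested, 3 were called lower (21.3% of all genes were), and 0 were called higher with edgeR (0 at an unadjusted p below 0.05), against 1 with DESeq2, 2 with limma and 3 with edgeR without 2-month replicate 2.

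**Figure D4:**
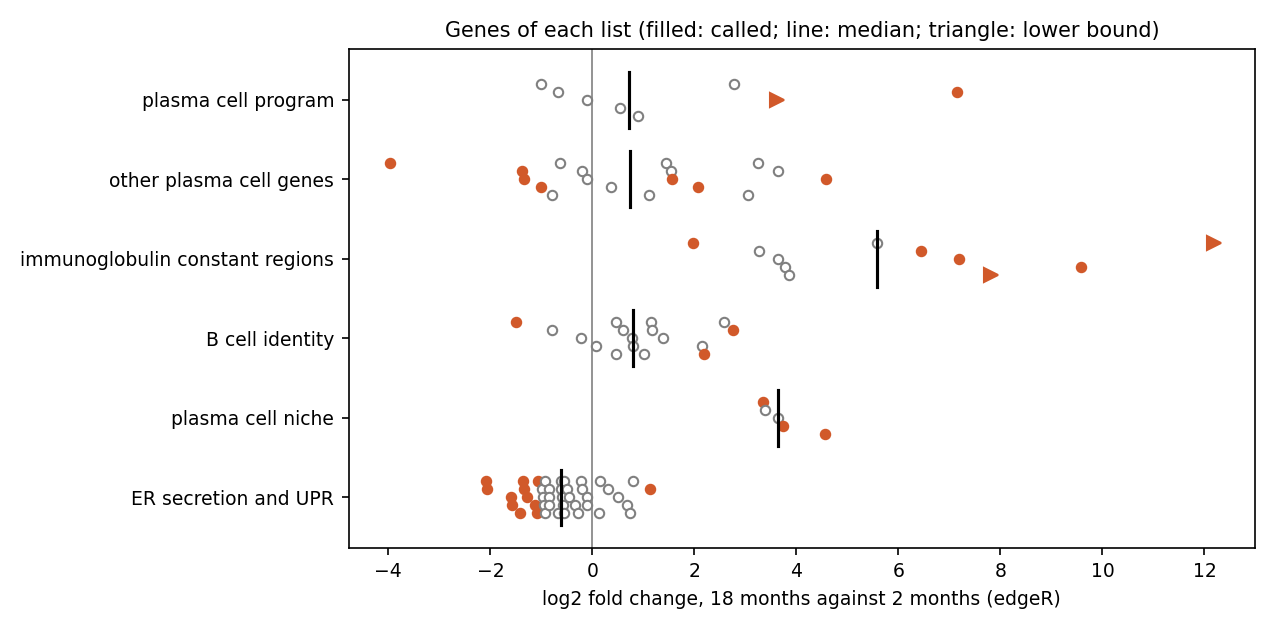
Log2 fold change at 18 against 2 months (horizontal axis, edgeR) of each tested gene in 6 lists, filled where called, with the median as a vertical line and triangles at the lower bound of genes without counts in every 2-month library. Immunoglobulin genes lie to the right (median 5.59), ER genes mostly to the left (median -0.61), and the plasma cell program spans both sides.

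Markers of other cells that can make members of the program were counted against the same background of 14.9% of all genes called higher and 21.3% lower. Without 2-month replicate 2 the background was 5007 called higher and 4576 lower of 21489 genes tested. Of plasmacytoid dendritic cell genes, 1 of 6 was called higher (Bst2, 1.75, edgeR adjusted p = 0.0471), with 0.000604% to 0.00425% of counts at 2 months and 0.00522% to 0.00606% at 18 months, and the defining marker Siglech gave 4, 412 and 0 counts against 1046, 657 and 655. That 1 call came to 5 without 2-month replicate 2 and to 0 with any other library left out. Of epithelial genes, 3 of 6 were called higher, led by Cdh1 (3.84), and 2 lower, led by Trp63 (-4.54), at 0.00119% to 0.00149% against 0.00152% to 0.00200% of counts, with Krt5 at 0 in every aged library, and the 3 came to 1 without 18-month replicate 2. T cell genes were called higher in 5 of 8, which came to 7 without 2-month replicate 2. The count came to 1 without each aged library in turn and to 3 without 2-month replicate 3. Macrophage and dendritic cell genes were called higher in 3 of 10, which came to 9 without 2-month replicate 2, to 5 without 2-month replicate 1, to 0 without 2-month replicate 3 and to 1 without any one aged library. Erythroid genes were called higher in 3 of 10, which came to 10 without 2-month replicate 2, to 0 with any other library left out, to 8 with DESeq2 and to 10 with limma. Endothelial genes were called in 0 of 6 with all libraries by edgeR, DESeq2 or limma (0 at an unadjusted p below 0.05), and in 5 of 6, all higher, by edgeR without 2-month replicate 2. Osteoblast and osteocyte genes were called lower in 4 of 10, and without 2-month replicate 2 in 3 with 4 called higher. Muscle genes were called lower in 3 of 5 (3 to 5 with 1 library left out). Synovial and tendon genes were called higher in 2 (0 to 3, with 3 without 2-month replicate 2) and lower in 3 of 8 (2 to 3). The part of these cells in the values of the 8 members was not tested.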

How the data were processed

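Per the labels, poly(A) RNA from mouse articular cartilage was made into strand-marked (dUTP) libraries with unique molecular identifiers and sequenced as paired reads. The submitters' processing notes name cutadapt 1.9, HISAT2 2.0.4, UMI-tools, StringTie 1.3.4d, DESeq2 and edgeR, without roles. The genome build and whether counting used strand are not given in the sources used here. The authors deposited 1 table of 33971 genes with raw counts and FPKM per library. Its columns of the authors' own comparison (fold change, p and q values) were not used. Of the gene IDs, 99.69% were in GENCODE M21 (GRCm38), and all 8 members had the same coordinates there. Promoter sequences are from RefSeq (GRCm38.p6), where the promoter of Mzb1 was not searched.

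Counts were tested with edgeR 4.0.16 in R 4.3.3 (filterByExpr, TMM scaling, quasi-likelihood fit on age, Benjamini-Hochberg adjustment over all tested genes), and the steps were tested on simulated data. SE is the log2 fold change over the root of the F statistic. FPKM entered limma 3.58.1 as log2(FPKM + 0.1), with 1 as the other pseudocount, and DESeq2 1.42.0 was an alternative. Ratios used log2 of counts plus 0.5 and an exact permutation test. No pair of libraries agreed within sampling noise (chi-square 6.32 to 48.8 times the expected). The floor was 3 counts per library, and intervals cover counting error only. Figures were drawn with matplotlib 3.10.9.

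The members and lists were chosen with earlier results of these data known. Named genes are the members, the most abundant gene and the 2 called genes with the largest change in each list where described, and the 3 most similar genes to each member, of which 1 is not reported here. Others (Ighm, Igha, Ptprc, Siglech, Krt5, SPATA24, Tnfsf13, Tnfrsf13b, Derl1, Derl2, Sdc2, Tent5c, Sec11c, Ell2, Lman1, Txndc5, Sdf2l1 and Bcl6) were named after their values were seen or as references.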

Additional observations from a re-analysis of the deposited data

How the results depend on the processing

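The fold changes and counts of calls were recomputed under 10 alternatives with all libraries and 6 that left out 1 library, and the ratios to Ptprc under the 6 and with 3 other references. Jchain was called in all 16 and Prdm1, Xbp1 and Sdc1 in 0. The members called (2) came to 1 with the replicate block, as did those called higher, since Tnfrsf17 was not called there (adjusted p = 0.0621, with a fitted log2 fold change of 8.36 against 8.35). The replicate numbers were not taken to pair the libraries, since same-numbered libraries deviated from their age means with correlations of 0.077, 0.080 and -0.070 (2 of 3 correlated best with their own number), and the block gave 6032 calls over all genes against 7401. Leaving out 1 library gave 2 to 5 members called, 2 to 4 called higher and 0 to 1 called lower, with 5, 4 and 1 without 2-month replicate 2. Other plasma cell genes called higher (3) came to 6 with DESeq2, 6 with limma, 5 with limma at a pseudocount of 1 and 6 with limma without a filter, to 2 with edgeR without a filter or with the replicate block, and to 2 to 9 with 1 library left out. Immunoglobulin constant genes called higher (6) came to 11, 10 and 11 with the limma settings and to 3 to 11 with 1 library left out. Mzb1 was called with limma on log2(FPKM + 0.1) (4.74, adjusted p = 0.0334) and on log2(FPKM + 1) (2.77, adjusted p = 0.0146). With 1 library left out, the log2 fold change of Xbp1 ran from -0.24 to 0.059, and the log2 ratio to Ptprc from -1.36 to 2.26 for Tnfrsf17, which has no counts at 2 months, so that its sign rests on the added 0.5 and the Ptprc counts, and from -1.54 to 1.87 for Mzb1. B cell identity genes called higher (2) came to 0 with the replicate block. The cause of the other moves was not tested.

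Over all genes, 3047 were called higher and 4354 lower. Those called higher came to 4769 with no limit on the fold and 5007 without 2-month replicate 2, and those called lower to 2217 with limma on log2(FPKM + 1), where 57.8% of calls were higher against 41.2%. Depth limits Tnfrsf17 most, since its aged libraries held at most 50 counts.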
